A study of Homo sapiens with 6 samples.

Results

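The 10 genes described here encode the Fos family (*FOS*, *FOSB*, *FOSL1*, *FOSL2*), the Jun family (*JUN*, *JUNB*, *JUND*), the related factor *ATF3*, and the immediate early genes *EGR1* and *IER2*. They were taken by name, with earlier results of these data known, and all 10 were among the 17471 genes listed. RNA-seq had been done on AN3CA, an established cell line from a human endometrial cancer that expresses *PAX2*, a developmental transcription factor. The 3 control libraries (shEV, labelled WT) came from cells transduced with the empty hairpin vector pGFP-C-shLenti, and the 3 knockdown libraries (shPAX2, labelled PAX2 KD) from cells transduced with the same lentiviral vector carrying a hairpin against *PAX2*. All cells of both groups had been selected with puromycin, and 1 hairpin in 1 line was used, so an effect of the hairpin apart from its target cannot be told apart from the knockdown. Elsewhere in its text the study describes this control as scrambled. It states in general terms that in vitro experiments were repeated, but not whether these libraries came from separate cultures, so the p-values measure the spread between these libraries, which may be technical.

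Fos and Jun proteins bind DNA as pairs through a basic leucine zipper, and these pairs make up the transcription factor AP-1. Jun proteins can pair with each other or with Fos proteins, whereas Fos proteins need a Jun partner, so the mixture of members present sets which pairs can form. *FOS*, *JUN*, *JUNB*, *EGR1* and *IER2* are immediate early genes, whose RNA appears within minutes of growth factor, serum or stress signals, without new protein synthesis, and is soon degraded. *JUND* and *FOSL2* RNAs are in general steadier. The signals reach *FOS* and *EGR1* largely through ERK and the other MAP kinases, which act on ternary complex factors bound beside serum response factor (SRF), and through kinases that act on CREB.

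Promoter sequences of the genes that fell, *EGR1*, *FOS* and *JUNB*, are shown with that of *JUND*, a family member of *JUNB* that did not pass the test. They are RefSeq windows of 250 bases before the start site (from GRCh38.p14), placed on GRCh37 by exact match and cut where the GENCODE gene begins. Capitals mark CArG boxes, the sites bound by SRF, and the core TGACG of the cyclic AMP response element (CRE), which reads CGTCA on the other strand. The *EGR1* window lies at chr5:137800918-137801167 (plus strand), that of *FOS* at chr14:75745281-75745528 (plus), that of *JUNB* at chr19:12902050-12902299 (plus) and that of *JUND* at chr19:18392433-18392682 (minus).
EGR1: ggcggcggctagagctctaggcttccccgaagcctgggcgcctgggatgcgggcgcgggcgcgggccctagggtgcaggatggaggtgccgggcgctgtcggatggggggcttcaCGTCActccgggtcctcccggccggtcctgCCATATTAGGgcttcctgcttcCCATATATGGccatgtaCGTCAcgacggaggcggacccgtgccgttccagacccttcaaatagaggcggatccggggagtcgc
FOS: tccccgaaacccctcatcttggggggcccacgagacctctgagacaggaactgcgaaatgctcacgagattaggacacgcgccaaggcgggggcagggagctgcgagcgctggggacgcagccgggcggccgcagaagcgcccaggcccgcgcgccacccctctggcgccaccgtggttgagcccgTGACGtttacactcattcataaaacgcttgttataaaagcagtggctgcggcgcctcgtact
JUNB: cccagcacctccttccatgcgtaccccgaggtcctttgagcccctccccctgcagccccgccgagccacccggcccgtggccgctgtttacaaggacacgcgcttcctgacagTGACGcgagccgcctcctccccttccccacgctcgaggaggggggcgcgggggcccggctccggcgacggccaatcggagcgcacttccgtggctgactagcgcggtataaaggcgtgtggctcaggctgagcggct
JUND: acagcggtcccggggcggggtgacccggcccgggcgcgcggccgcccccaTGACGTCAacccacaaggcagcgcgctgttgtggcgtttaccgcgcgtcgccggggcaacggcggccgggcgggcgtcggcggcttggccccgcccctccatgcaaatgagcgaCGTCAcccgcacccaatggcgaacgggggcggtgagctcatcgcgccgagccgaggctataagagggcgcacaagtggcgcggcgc

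The table held 10 windows for 9 of the genes, with 2 for *ATF3*. *FOSL1* had no entry. The core TGACG was found on either strand in 8 of the 10 windows, those of every gene with a window other than *ATF3*, against 21.2% of all 34943 windows. The *FOSL2* window (2:28615475-28615724) and the *ATF3* window at 1:212788110-212788359 lie wholly within the GENCODE span of their genes. The other *ATF3* window (1:212738499-212738748) lies partly within it. The missing core in *ATF3* thus describes these windows only, not every start of the gene. The whole CRE, TGACGTCA, was found only in the *JUND* window, 200 bases before the start, against 1.63% of all windows, and it holds the core on both strands. The *EGR1* window was the only member window with a CArG box and held 2, at 105 and 83 bases before the start, against 1.16% of all windows with any. The known CArG box of *FOS* lies farther upstream than this window reaches. A TATA box, TATAAA, was present in 4 windows, among them *FOS* (33 bases before the start) and *JUNB* (31 bases), against 10.8%. No window held the AP-1 site TGACTCA or TGAGTCA (4.22% of all windows) or the EGR site GCGTGGGCG or GCGGGGGCG (5.35%). Both strands were searched for each motif, and a match is a description of the letters only.

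The libraries differed in depth. Whole reads recovered from the TPM values (read numbers scaled by gene length and library total) ran from 10730909 to 18221859 in the shEV libraries and from 19422615 to 29405787 in the shPAX2 ones, all of which were deeper. *PAX2* itself was at 4.03, 3.66 and 2.74 TPM in shEV replicates 1 to 3 and at 0.916, 0.723 and 1.17 TPM in the shPAX2 replicates, a log2 fold change of -1.47 (SE 0.18, adjusted p = 0.000294 by limma), the direction the labels give. Of 8 epithelial markers for these cells, labelled epithelial, only *KRT18* passed the filter on low values, and *EPCAM*, *CDH1*, *KRT7*, *KRT8* and *KRT19* had at most 6 reads in any library, whereas the mesenchymal filament gene *VIM* averaged 4212 ± 184 TPM over the 3 shEV libraries and 3808 ± 59.0 TPM over the 3 shPAX2 libraries (SD). Of 8 stromal or mesenchymal markers, 6 were listed and 5 tested, with summed TPM of 4896 to 5298 in shEV and 4362 to 4556 in shPAX2. Among them the collagen gene *COL1A2* fell from 836 ± 24.3 to 390 ± 43.1 TPM (log2 fold change -1.11, adjusted p = 1.75e-05 by limma) and *COL3A1* rose from 35.1 ± 8.25 to 242 ± 6.14 TPM (2.79, adjusted p = 0.000122). The rest of that list was low. *CDH2* had 1 to 3 reads a library and was not tested. *COL1A1* averaged 1.02 TPM in shEV and 0.888 TPM in shPAX2, and *PDGFRB* 1.04 and 0.724 TPM. The summed TPM of blood and vessel markers was 0.887 to 1.52 in shEV and 1.71 to 2.69 in shPAX2, mostly from *CD68*, with *PTPRC* at 0 in 5 of 6 libraries and at 1 read in the other. The part of these marker differences in the results below was not tested.

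A gene was tested where it had at least 0.5 TPM in at least 3 libraries. The test was limma on log2(TPM + 0.5), shPAX2 minus shEV, with p adjusted over all 13163 genes tested, and a gene was called where the adjusted p was under 0.05 and the log2 fold change was 1 or more in either direction. This rule called 4.54% of all genes tested (598), 1.43% as higher (188) and 3.11% as lower (410) in shPAX2. With quantile normalization the split was 240 higher and 293 lower. Of the 10 genes, 9 were tested, each above the filter in all 6 libraries, and *FOSB* was not. *FOSL2* was called as higher, and *FOS*, *JUNB* and *EGR1* as lower. On the adjusted p alone, without a fold, 5 of the 9 passed (2 higher, with *JUN*, and 3 lower), against 42.8% of all genes tested (12.2% higher and 30.5% lower). No library of one group lay within the range of the other for 6 of the 9, against 54.9% of all genes tested. The last 2 counts are close to their backgrounds. The median log2 fold change over all genes tested was -0.10, which scaling by median of ratios moved to 0.0053. *FOS*, *FOSL2*, *JUNB* and *EGR1* kept their direction under that and the 15 other alternatives run.

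**Figure D1:**
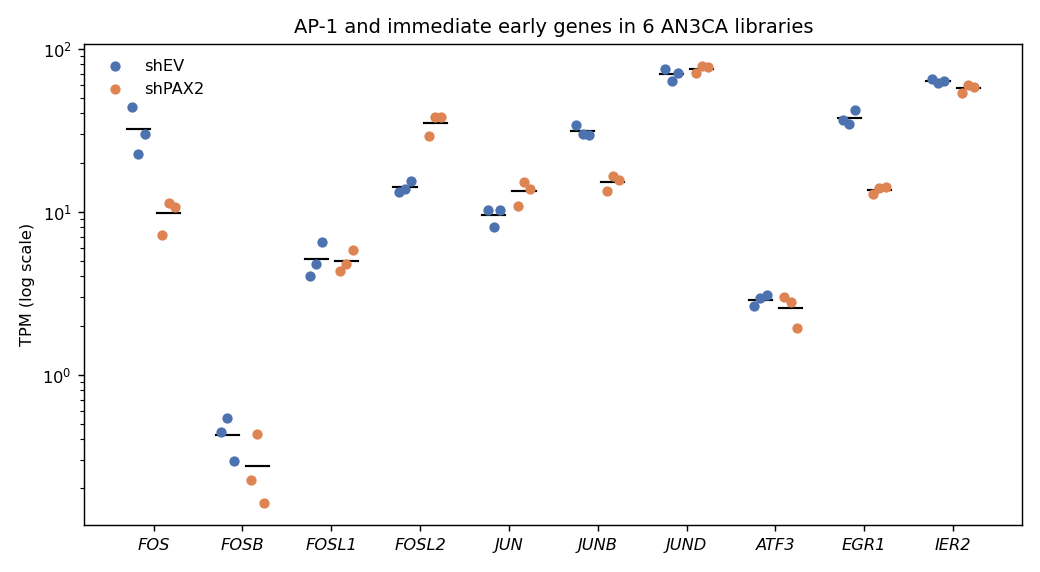
TPM (log axis) of the 10 genes in the 3 shEV and 3 shPAX2 libraries, 1 point a library, with a bar at each group's mean. The groups stand apart, with lower shPAX2 values, for *FOS*, *JUNB* and *EGR1* and with higher shPAX2 values for *FOSL2*, while *FOSL1*, *JUND* and *ATF3* overlap and *FOSB* lies below 0.6 TPM throughout.

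Within the Fos family, *FOS* and *FOSL2* moved in opposite directions. *FOS* (14:75745529-75748933, plus strand, GRCh37) encodes c-Fos, the founding member and the part of AP-1 that appears most briefly after a stimulus. Its level was 43.6, 22.5 and 29.7 TPM in shEV replicates 1 to 3 and at 7.18, 11.3 and 10.7 TPM in the shPAX2 replicates. Every shPAX2 library was below every shEV library, and shEV replicate 1 was the highest of all. The recovered reads were also fewer in the deeper libraries, at 505, 429 and 579 for the control and 237, 330 and 225 for the knockdown. The mean fell from 31.9 ± 10.7 to 9.73 ± 2.24 TPM (SD, n = 3 each), which is 30.5% of the control level, with a log2 fold change of -1.64 (SE 0.31, 95% interval -2.43 to -0.85, adjusted p = 0.0120 by limma). With each library left out in turn the log2 fold change ran from -1.86 to -1.39 and the adjusted p from 0.00754 to 0.0469. In bulk RNA, fewer cells that express a gene and less of its RNA per cell cannot be told apart.

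*FOSL2* (2:28615315-28640184, plus strand) encodes Fra-2, a Fos protein without the strong activation domain of c-Fos. Its values were 13.1, 13.7 and 15.4 TPM in the shEV replicates and 29.2, 38.0 and 38.0 TPM in the shPAX2 replicates. The lowest shPAX2 library was thus well above the highest shEV library. The mean rose 2.5-fold, from 14.1 ± 1.19 to 35.1 ± 5.06 TPM (SD, n = 3 each), with a log2 fold change of 1.28 (SE 0.11, 95% interval 1.03 to 1.53, adjusted p = 5.52e-05 by limma). Over the 16 alternatives the log2 fold change ran from 1.22 to 1.41, and *FOSL2* was called in each. *FOSL2*, *ATF3* and *IER2* overlap annotated noncoding genes that were not analysed here, so reads of those overlaps cannot be told apart.

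*FOSL1* (11:65659520-65668044, minus strand) encodes Fra-1, which is often raised in invasive cancer cells. It was at 4.02, 4.75 and 6.51 TPM in shEV and at 4.35, 4.76 and 5.84 TPM in shPAX2, with the groups interleaved. The log2 fold change was -0.01 (95% interval -0.40 to 0.38, adjusted p = 0.956 by limma), and its sign turned in 6 of 15 alternatives, among them median-of-ratios scaling, quantile normalization and voom. *FOSB* (19:45971253-45978437, plus strand), a close relative of *FOS*, was at 0.444, 0.539 and 0.293 TPM in shEV and at 0.225, 0.432 and 0.163 TPM in shPAX2, from 6 to 22 reads a library. Only 1 library passed 0.5 TPM, so it was not tested. Its gene overlaps *ERCC1* on the opposite strand (56.6 TPM in shEV and 49.4 TPM in shPAX2, means), and the strand setting of the counting is not given in the sources used here, so reads of the overlap cannot be assigned with certainty.

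The summed level of the Fos family differed less between groups than within them, while its make-up differed. The 4 genes together held 41.4 to 61.2 TPM per shEV library (51.5 ± 9.86, SD, n = 3) and 41.0 to 54.7 TPM per shPAX2 library (50.1 ± 7.87, n = 3). *FOS* made up 54.3% to 71.3% of that sum in shEV and 17.5% to 20.8% in shPAX2. *FOSL2* made up 21.4% to 33.0% in shEV and 69.5% to 71.3% in shPAX2. The share of *FOSL1* averaged 10.2% in shEV and 10.0% in shPAX2. The ratio of *FOS* to *FOSL2* TPM ran from 1.65 to 3.32 in shEV and from 0.245 to 0.299 in shPAX2, so *FOS* was the more abundant in every shEV library and *FOSL2* in every shPAX2 library. These shares are within a library and so do not depend on how libraries are scaled to each other. They are given as a description, with no test.

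**Figure D2:**
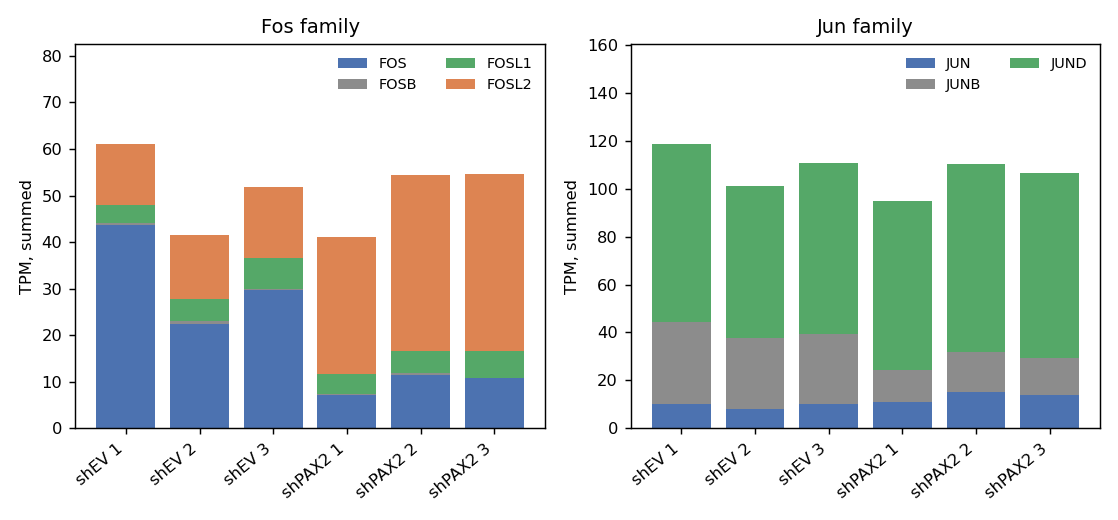
TPM of the Fos family (left) and the Jun family (right), stacked by member, for each of the 6 libraries (shEV 1 to 3, shPAX2 1 to 3), on axes starting at 0. The bar heights overlap between groups, with 41.4 to 61.2 TPM in shEV and 41.0 to 54.7 TPM in shPAX2 for the Fos family, while *FOSL2* takes the place of *FOS* as the largest part.

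In the Jun family, *JUNB* fell, *JUN* was higher on the adjusted p alone and *JUND*, the most abundant of the 10 genes, did not pass. *JUNB* (19:12902300-12904129, plus strand) encodes an AP-1 subunit that can oppose c-Jun in growth control. It stood at 34.2, 29.8 and 29.3 TPM in the shEV replicates and at 13.5, 16.5 and 15.6 TPM in the shPAX2 replicates, with no overlap. The mean fell from 31.1 ± 2.66 to 15.2 ± 1.58 TPM (SD, n = 3 each), to 48.9% of the control level, with a log2 fold change of -1.01 (SE 0.09, 95% interval -1.22 to -0.80, adjusted p = 5.96e-05 by limma). This is just past the fold threshold. The fold fell short of it in 6 of 16 alternatives, at -0.94 without shEV replicate 1, -0.93 without shPAX2 replicate 1 and -0.90 with median-of-ratios scaling, while the adjusted p was at most 0.000897 in all 16. *HOOK2*, which overlaps *JUNB* on the opposite strand, was at 4.73 TPM in shEV and 2.70 TPM in shPAX2 (means), and its part in the *JUNB* values was not tested.

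*JUN* (1:59242517-59249720, minus strand) encodes c-Jun, the partner of c-Fos in the classical AP-1 pair and a target of the JNK kinases. It was at 10.3, 8.04 and 10.2 TPM in shEV and at 10.8, 15.3 and 13.8 TPM in shPAX2. The lowest shPAX2 value was only a little above the highest shEV value. The means were 9.50 ± 1.27 and 13.3 ± 2.31 TPM (SD, n = 3 each), with a log2 fold change of 0.46 (SE 0.14, 95% interval 0.14 to 0.78, adjusted p = 0.0303 by limma). The adjusted p stayed under 0.05 in 9 of 16 alternatives and was highest, at 0.0952, without shPAX2 replicate 2. It was also above 0.05 without shPAX2 replicate 3 (0.0900), shEV replicate 2 (0.0936) or shEV replicate 3 (0.0524).

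*JUND* (19:18390504-18392432, minus strand), the Jun member whose RNA is in general present in resting cells, was at 74.5, 63.5 and 71.2 TPM in shEV and at 70.7, 78.4 and 77.2 TPM in shPAX2. The groups overlapped. The log2 fold change was 0.11 (95% interval -0.05 to 0.28, adjusted p = 0.247 by limma). With median-of-ratios scaling it was 0.23 (adjusted p = 0.0267), still well short of the fold threshold.

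The Jun family together held 101 to 119 TPM per shEV library and 94.9 to 110 TPM per shPAX2 library. *JUNB* averaged 28.2% of that sum in shEV and 14.6% in shPAX2, *JUN* 8.59% and 12.7%, and *JUND* 63.2% and 72.7%. *JUNB* was 2.88 to 3.71 times the level of *JUN* in shEV libraries and 1.08 to 1.25 times in shPAX2 libraries. Fos family TPM over Jun family TPM averaged 0.464 ± 0.0527 in shEV and 0.480 ± 0.0426 in shPAX2 (SD, n = 3 each), a difference within the spread of either group.

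*EGR1* (5:137801168-137804992, plus strand) gave the smallest adjusted p of the 10 genes. It encodes a zinc finger factor that is among the first genes switched on by ERK signalling. Its values were 36.6, 34.5 and 41.7 TPM in the shEV replicates and 12.8, 14.0 and 14.1 TPM in the shPAX2 replicates, far from overlap. The mean fell from 37.6 ± 3.71 to 13.6 ± 0.740 TPM (SD, n = 3 each), to 36.3% of the control level, with a log2 fold change of -1.43 (SE 0.08, 95% interval -1.61 to -1.24, adjusted p = 5.05e-06 by limma). It was called in all 16 alternatives, at -1.49 to -1.31.

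*IER2* (19:13261225-13265725, plus strand), an immediate early gene for a nuclear protein, did not pass. It was at 64.6, 61.8 and 63.3 TPM in shEV and at 53.7, 59.5 and 58.5 TPM in shPAX2. The groups did not overlap, but shPAX2 stood at 90.5% of the control level, and the log2 fold change was -0.14 (95% interval -0.28 to -0.0085, adjusted p = 0.0811 by limma). It did not reach an adjusted p of 0.05 in any of 16 alternatives. *ATF3* (1:212738676-212794119, plus strand), a stress-induced factor that can pair with Jun proteins, was at 2.63, 2.93 and 3.09 TPM in shEV and at 2.98, 2.77 and 1.93 TPM in shPAX2. The groups overlapped, with a log2 fold change of -0.16 (SE 0.16, adjusted p = 0.438 by limma) whose sign turned with quantile normalization (0.11).

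**Figure D3:**
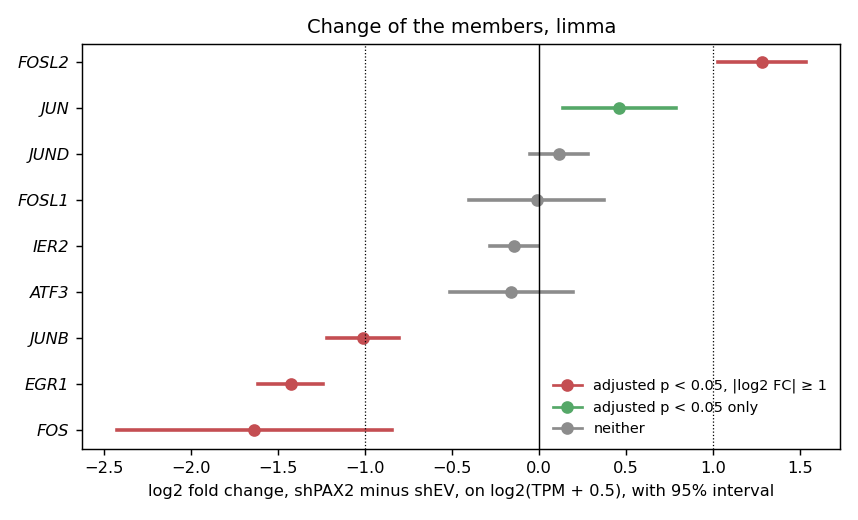
Log2 fold change (shPAX2 minus shEV, on log2(TPM + 0.5)) of the 9 genes tested, with 95% intervals from limma. Dotted lines mark a log2 fold change of 1 in either direction. *FOS*, *EGR1* and *JUNB* (red) lie at -1.64, -1.43 and -1.01, *FOSL2* (red) at 1.28 and *JUN* (green, adjusted p alone) at 0.46.

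An exact two-sided permutation test of each gene alone, 3 libraries against 3, cannot go below p = 0.1. It gave that smallest p for *FOS*, *FOSL2*, *JUN*, *JUNB*, *EGR1* and *IER2*.

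TPM is scaled by gene length, so the 10 genes can be ranked by level within a group. In shEV the order of mean TPM was *JUND*, *IER2*, *EGR1*, *FOS*, *JUNB*, *FOSL2*, *JUN*, *FOSL1*, *ATF3*, *FOSB*, and the ranges of *JUND* and *IER2*, of *EGR1* and *FOS*, and of *FOS* and *JUNB* overlapped. In shPAX2 it was *JUND*, *IER2*, *FOSL2*, *JUNB*, *EGR1*, *JUN*, *FOS*, *FOSL1*, *ATF3*, *FOSB*, and the ranges of *JUNB* and *EGR1*, of *EGR1* and *JUN*, and of *JUN* and *FOS* overlapped. *FOSL2* thus went from rank 6 to rank 3 and *FOS* from rank 4 to rank 7, while the top pair and the bottom 3 kept their places.

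The spread within groups was uneven among the genes. The coefficient of variation of TPM over the 3 shEV libraries had a median of 8.57% for the 9 tested genes, from 2.26% for *IER2* to 33.6% for *FOS*, beside 6.57% for all genes tested. In shPAX2 the median was 14.4%, from 5.42% to 23.0%, beside 6.90%. *FOS* was more variable than 94.1% of all genes tested in shEV and than 90.2% in shPAX2, and counting error alone would give it 4.48% and 6.22%. *EGR1* and *IER2*, in contrast, varied by 9.86% and 2.26% in shEV and by 5.42% each in shPAX2. *FOSB*, on 6 to 22 reads, varied by 29.2% in shEV, about its counting error of 29.5%. In shPAX2 it varied by 51.6%, above its counting error of 30.0%.

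Across the shPAX2 libraries, replicate 1 was the lowest of its group in 8 of the 9 tested genes, all but *ATF3*, in which it was the highest. The share of all genes tested in which this library was the lowest is not given here, so an offset of the whole library cannot be told apart. Its median deviation from the group mean over the 9 genes was -0.16 on the log2 scale. This library was also the deepest and had the largest share of TPM in the small RNA genes *RPPH1* and *RMRP* (15.6%, against 12.7% to 14.2% in the other libraries), and the part of either was not tested. In shEV, replicate 2 was the lowest in 5 genes and the highest in none. Without shPAX2 replicate 1, the log2 fold changes were -1.44 for *FOS* and -0.93 for *JUNB*.

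**Figure D4:**
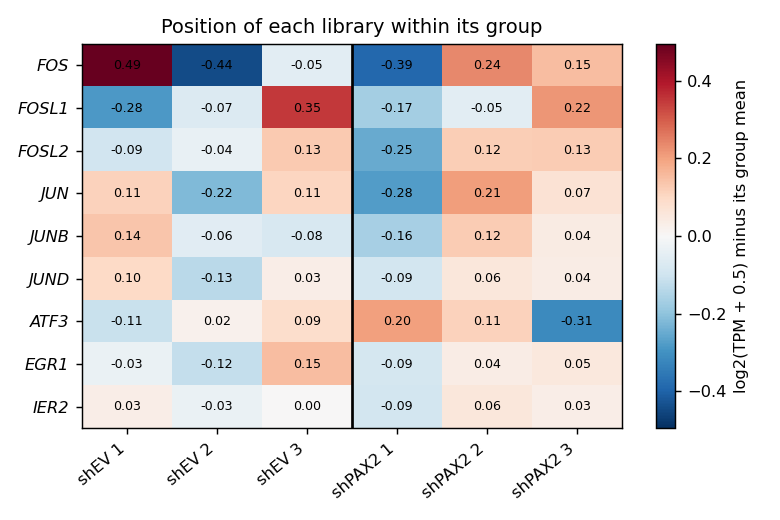
Deviation of each library from its group's mean on the log2(TPM + 0.5) scale, for the 9 tested genes (rows) and the 6 libraries (columns), red above and blue below the mean. The column of shPAX2 replicate 1 is blue for every gene but *ATF3*, and the *FOS* row has the widest range in shEV, from -0.44 to 0.49.

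Other genes of the same pathways were taken from 4 lists. AP-1 relatives are the ATF, BATF, JDP2 and MAF factors with the same kind of zipper. Of 14 such genes, 12 were listed and 10 tested, and limma called none with the fold threshold, while 6 passed at an unadjusted p under 0.05 and the same number on the adjusted p alone, where 42.8% of all genes tested passed. The 3 higher ones, named after their values were seen, were *ATF4* (0.34), the main factor of the amino acid and stress response, *ATF5* (0.68) and *ATF6* (0.47), a sensor of unfolded protein, each as a log2 fold change. The 3 lower ones were *ATF2* (-0.40), a Jun partner, *ATF7* (-0.37) and *MAFF* (-0.44). The median of the list was -0.05, beside -0.10 for all genes tested.

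Of 40 other immediate early genes, 38 were tested, and none was called as higher and 4 as lower, against backgrounds of 1.43% and 3.11%. The list's median log2 fold change was -0.30, beside -0.10 for all genes tested. *SOCS3*, a feedback inhibitor of cytokine receptors, fell from 6.39 ± 1.14 to 1.84 ± 0.364 TPM (log2 fold change -1.55, adjusted p = 0.000118 by limma). *SGK1*, a serum-induced kinase gene on chromosome 6, fell from 2.87 ± 0.483 to 0.669 ± 0.117 TPM (-1.52, adjusted p = 0.000126). *TRIB1*, which codes for a pseudokinase, fell from 7.17 ± 0.306 to 3.31 ± 0.334 TPM (-1.01, adjusted p = 0.000116), and its fold fell short of the threshold in 6 of 16 alternatives. *PLK2*, the polo-like kinase induced by serum, went from 119, 94.7 and 95.1 TPM in shEV to 0.967, 8.91 and 7.87 TPM in shPAX2 (-4.40, adjusted p = 0.0146). Its lowest value was in shPAX2 replicate 1, as for 8 of the 9 tested members of the AP-1 and immediate early group. Without that library *DUSP2* and *CYR61*, named after their values were seen, were called as higher, at log2 fold changes of 1.34 and 1.37 by limma, whereas with all 6 libraries these were 0.99 (adjusted p = 0.0991) and 1.01 (adjusted p = 0.111).

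On the adjusted p alone, 19 of the 38 were lower and 5 higher, against 30.5% and 12.2% of all genes tested. Named after their values were seen, *EGR2*, a relative of *EGR1*, had a log2 fold change of -0.83 (adjusted p = 0.0164), *NR4A2* of -0.96, *HES1* of -0.88 and *DUSP1*, a phosphatase that switches off MAP kinases, of -0.39. *EGR3* was below the filter. *NR4A1* (0.41) and *SRF* (0.66) were among the higher ones. *SRF* lies on chromosome 6, where the median over 635 genes tested was 0.39, beside -0.11 for 11996 genes placed elsewhere. None of the 10 genes lies on that chromosome.

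Upstream kinases and transcription factors, 27 genes from the MAP kinases to the ternary complex factors, CREB and the EGR1 corepressors, gave 1 call among 26 tested, a share near the background of 4.54%. *NAB1*, which codes for a corepressor that binds EGR1, fell from 5.29, 6.28 and 7.04 TPM in shEV to 0.95, 0.664 and 0.757 TPM in shPAX2 (log2 fold change -2.37, SE 0.15, adjusted p = 7.75e-06 by limma). *NAB2*, its relative and a known target of EGR1, had a log2 fold change of -0.61 (adjusted p = 0.000405) and is named after its values were seen. On the adjusted p alone, 2 were higher, both on chromosome 6 (*MAPK14* and *RPS6KA2*, named after their values were seen), and 7 lower, against 12.2% and 30.5% of all genes tested. The median of the list was -0.06.

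Of 34 genes widely described as AP-1 targets, 29 were listed and 21 tested. The rule called 3 as higher and 2 as lower, against 1.43% and 3.11% of all genes tested, but 4 of these 5 were near 0 in 1 group and passed the filter only through the group where they were high, so only *DUSP4* was called on levels above the filter in both groups. *DUSP4*, a MAP kinase phosphatase, rose from 11.5 ± 1.22 to 65.4 ± 1.40 TPM (SD, n = 3 each, log2 fold change 2.46, adjusted p = 1.52e-07 by limma). The other 4 are given by their levels. *MMP1*, an interstitial collagenase, was covered by 0, 1 and 1 reads in the shEV libraries and by 59, 124 and 106 reads in those of shPAX2, a ratio of reads per library total of 88.5 with a 95% interval of 24.3 to 734 that covers counting error only. *MMP10*, a stromelysin, was at 0.424, 0 and 0.0630 TPM in shEV and at 1.86, 9.57 and 8.56 TPM in shPAX2, again lowest in shPAX2 replicate 1.

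*ITGA2*, the collagen-binding integrin chain, averaged 4.16 ± 1.01 TPM over the 3 shEV libraries and 0.0502 ± 0.0195 TPM over the 3 shPAX2 libraries (SD). *SPP1*, which encodes osteopontin, was covered by 47, 59 and 67 reads in the shEV libraries and by 0, 3 and 3 reads in those of shPAX2, a ratio of 47.1 in reads per library total (95% interval 21.2 to 130.1, counting error only). With a library left out, the number of targets called dropped from 5 to 2 without shEV replicate 2 or 3 and to 3 without shEV replicate 1, shPAX2 replicate 1 or shPAX2 replicate 3. Part of this drop was set by the filter. *ITGA2* and *SPP1* could not pass it without a shEV library, nor *MMP1* and *MMP10* without a shPAX2 library. On the adjusted p alone, 3 of 21 targets were higher and 7 lower, beside 12.2% and 30.5% of all genes tested, and the median was -0.14. The higher ones include *MMP1* and *MMP10* and the lower ones *ITGA2* and *SPP1*, which passed the filter only through the group where they were high. These counts therefore cannot be read against those shares. Levels of Fos and Jun RNA were the only AP-1 measurements here, and binding was not measured.

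**Figure D5:**
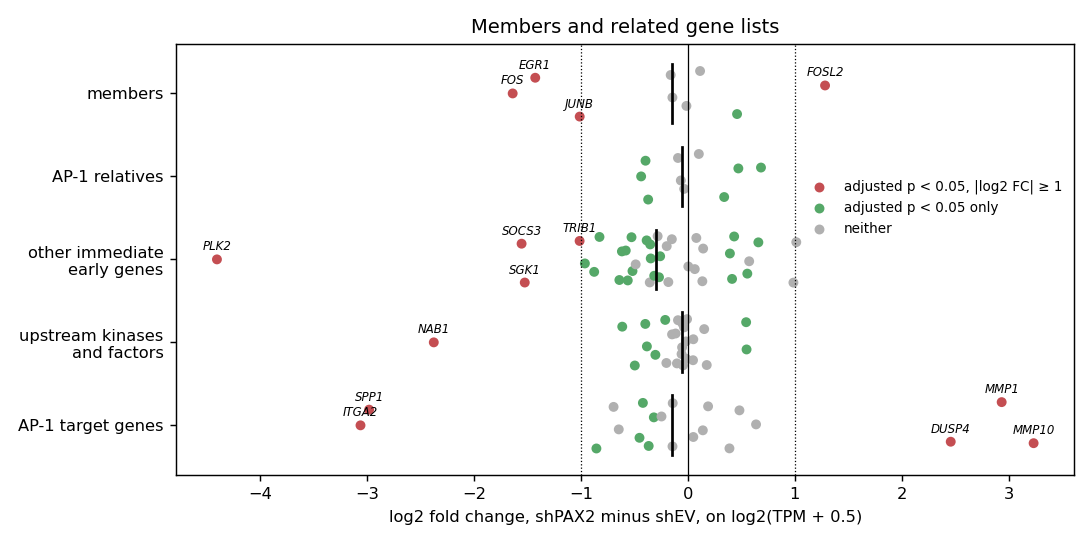
Log2 fold change (shPAX2 minus shEV, on log2(TPM + 0.5)) of each tested gene of the 10 members and the 4 lists, 1 point a gene, with red for genes called, green for adjusted p alone and grey for neither. Black bars mark list medians, between -0.30 and -0.05, and dotted lines the fold threshold.

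For each tested gene, the gene whose log2(TPM + 0.5) was most alike over the 6 libraries was sought among 10520 genes with a mean of at least 5 TPM. For *FOS* it was *SH2B3* (Pearson r 0.9995), for *FOSL2* *ULBP2* (0.999), for *JUN* *CMSS1* (0.999), for *JUNB* *MORF4L1* (0.999), for *EGR1* *ZNF827* (0.999) and for *IER2* *ZBTB20* (0.999). For *FOSL1* it was *KRT10* (0.980), for *JUND* *SMG8* (0.990) and for *ATF3* *BRI3* (0.983). With 6 points and a choice among this many genes, the likeness was high for all 9 genes, and the points share library and depth. The measure is blind to size: *SH2B3* had a log2 fold change of -0.40 where *FOS* had -1.64, while *SMG8* (0.08) and *JUND* (0.11) were close.

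Gene structure varied among the 10 genes. *JUN*, *JUNB* and *JUND* have 1 exon each, beside 2.18% of tested coding genes with 1 exon, while the others have 2 to 4. The median gene span was 5843 bases, beside 33107 for tested coding genes, but *ATF3* spans 55444 bases. The pentamer ATTTA, the core of AU-rich elements that shorten the life of RNA, occurred in the annotated 3′ UTR of 9 of the 10 genes, all but *IER2*, against 72.8% of 11512 tested genes. TATTTAT occurred in 7 of 10, against 35.5%, and was missing from *JUNB*, *EGR1* and *IER2*. *FOS* held ATTTA at 5 positions in 806 bases and *FOSL2* at 9 positions in 4869 bases. ATTTA was present in *FOS*, *JUNB* and *EGR1*, which fell, and in *FOSL2*, which rose, while TATTTAT was present only in *FOS* and *FOSL2* of these. The part of either element in the changes was not tested.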

How the data were processed

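The authors deposited TPM values for 17471 genes in 6 AN3CA libraries (3 shEV, 3 shPAX2). The labels give a stranded total RNA kit, and the submitters' processing notes name hg19, bcl2fastq, STAR, Subread, featureCounts and edgeR, with no versions given in the sources used here. The study's methods state RSEM for another cell line, so the tool behind these values is uncertain. Within each gene the ratios between libraries were ratios of whole numbers in 100% of genes (relative tolerance 1e-10), so reads were recovered up to a factor common to the libraries of a gene. Intervals on reads cover counting error only.

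Genes with at least 0.5 TPM in at least 3 libraries were tested with limma 3.58.1 in R 4.3.3 (lmFit and eBayes, trended and robust) on log2(TPM + 0.5), two-sided, with Benjamini-Hochberg adjustment over all genes tested. This scale understates changes of low genes. The fit was tested on simulated data. Symbols were matched to GENCODE 44 on GRCh37 (15324 directly, 1238 through an older symbol, 94.8% in all). The genes, lists and tests were chosen with earlier results of these data known. The text names all 10 genes, *PAX2*, every list gene past the threshold and, for each tested gene, the gene with the most similar pattern, and says where a gene was named after its values were seen. Some genes of the lists are not reported here and were left out of the list counts. Alternatives were pseudocounts of 0.1 and 1, no filter, a filter of 5 TPM, scaling by median of ratios, quantile normalization, rescaling without *RPPH1* and *RMRP*, eBayes without trend and robust, voom on the recovered reads, a replicate block, and each library left out in turn.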

Additional observations from a re-analysis of the deposited data

How the results depend on the processing

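The call of 4 of the 10 genes became 3 or 4 under the 16 alternatives. *EGR1* and *FOSL2* were called in each, *FOS* in all but the replicate block, and *JUNB* fell short of the fold in 6, at -0.99 with a pseudocount of 1, -0.90 with median-of-ratios scaling or quantile normalization, -0.92 by voom, -0.94 with shEV replicate 1 left out and -0.93 with shPAX2 replicate 1 left out. The log2 fold change of *FOSL1* turned positive with median-of-ratios scaling (0.0889), quantile normalization (0.23), voom (0.0131), and on leaving out shEV replicate 3 (0.16) or shPAX2 replicate 1 (0.0703) or 2 (0.0116), within a range of -0.15 to 0.16 over the libraries left out, and that of *ATF3* with quantile normalization (0.11). The cause was not tested. With a filter of 5 TPM, which tested 10633 genes, 303 were called in place of 598, and 1 AP-1 target in place of 5. With quantile normalization, 240 genes were higher and 293 lower, beside 188 and 410. Leaving out 1 library gave 2 to 4 AP-1 targets (*ITGA2* and *SPP1* were not tested without a shEV library, nor *MMP1* and *MMP10* without a shPAX2 library, and *MMP10* had an adjusted p of 0.0513 without shEV replicate 2 and 0.0538 without shEV replicate 3), 484 to 610 genes in all and 3 to 6 other immediate early genes (2 of them higher without shPAX2 replicate 1). Same-numbered libraries of the groups did not deviate together (correlations -0.0523, 0.0815 and 0.00140), so the numbers were not taken as pairs. With the replicate block the count of all genes called was 588 and that of the 10 genes was 3, since *FOS* then had an adjusted p of 0.0686, and on the adjusted p alone 3 passed in place of 5. *PLK2* (0.0511) and *MMP10* (0.0633) also missed the threshold there. *MMP10* passed the filter only through the shPAX2 libraries, where it was high, so its adjusted p-values are given as a description. *PAX2* kept its call in all 15 alternatives that tested it, from -1.79 to -1.20. Depth limits *FOSB*, at 6 to 22 reads, *FOSL1*, at 36 to 111 reads, and *ATF3*, at 36 to 116 reads a library.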
